A study of Mus musculus with 12 samples.

Results

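Genes of the splenic red pulp macrophage and of iron recycling were followed in mouse spleen on 12 Affymetrix arrays. The group was named by 10 gene symbols: Adgre1, Spic, Vcam1, Treml4, Cd163, Hmox1, Cd5l, Slc40a1, Trf and Slc11a1. A gene was measured through the probe set whose annotation gives its symbol and no other, and this left 9 of the 10 genes, with 1 probe set each, among 19938 genes in all. Slc11a1, which encodes a metal transporter of the phagosome membrane, had no such probe set and has no value here.

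All mice were of strain C57BL/6 and the labels form 3 groups of 4 biological replicates. The first holds Toll-like receptor (TLR)-deficient mice with colon ascendens stent peritonitis (CASP), a sepsis model in which a stent lets gut contents leak into the abdomen. The titles of these samples read Trifxmyd, which names the TLR adaptors Trif and MyD88, and the alleles are not stated. The second holds wildtype mice with CASP and the third untreated wildtype mice, 3 of whose titles give 0 h. The labels give neither a sampling time for the septic mice nor the age of any mouse, and no untreated TLR-deficient group was analysed here. Array titles run from M5 to M16: M5 to M8 are labelled septic TLR-deficient (replicates 1 to 4), M9 to M12 septic wildtype and M13 to M16 untreated wildtype.

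Red pulp macrophages clear aged and damaged red cells from the blood that filters through the spleen. They break down haemoglobin, free the iron from haem with haem oxygenase, and store it in ferritin or export it through ferroportin to transferrin in plasma. The transcription factor SpiC is needed for these cells to form, and haem itself induces it. In inflammation the liver hormone hepcidin degrades ferroportin, so that iron is held back inside macrophages.

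The arrays did not follow their labels. The array most like a given one carried the same label for 4 of the 12, and earlier results of these data showed 3 sets that run across the labels: M5 to M7 with M16, M8 to M11, and M12 to M15. These sets match no batch that the labels name and were seen in these values, so they are described by ranges. M10, septic wildtype replicate 2, stood apart from all others: its log2 values had an SD of 1.52, against 2.11 to 2.24 on the other 11 arrays, and it correlated across probe sets at 0.739 to 0.783 with them, against 0.943 to 0.988 among them. Xist, transcribed in female cells, lay at 3.73 to 4.33 on M12 to M15 and at 8.94 to 10.94 on the other 8 arrays. The Y-linked gene Eif2s3y lay at 7.21 to 7.95 on M12 to M15 and at 2.48 to 4.50 on the others, while the labels give no sex. Of M12 to M15, the first is labelled septic wildtype and the rest untreated, so comparisons between labels also differ in this pattern. Myd88 ranged from 8.62 to 9.64, 6.48 to 9.20 and 8.87 to 9.75 in the 3 groups as ordered above. By set, it lay below all other arrays on M8 to M11, at 6.48 to 8.78, as 2.12% of all genes did. On M5 to M7 and M16 it lay above all others, at 9.42 to 9.75, as 1.72% did. Ticam1, which encodes Trif, ranged from 5.80 to 5.93, 5.64 to 6.22 and 5.76 to 6.57, so for neither did the TLR-deficient arrays all lie below the wildtype ones. The probe sets may lie outside the deleted parts, in which case they check nothing. Every group name below therefore means what the label says.

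Because the members share a cell type, the sequence upstream of their start sites is shown for those that the RefSeq promoter table holds (build GRCm38.p6). It holds 4 of the 9 measured members, Cd163, Spic, Cd5l and Treml4, in windows of the 250 bases before the start site it uses. The start sites used for Cd163 and Treml4 lie 15 and 95 bases inside the annotated gene, and only the bases before the gene are printed, 5′ to 3′ on its strand. Capitals mark a match to the PU box GAGGAA, the core bound by ETS factors of the PU.1 and SpiC kind, here on the opposite strand.

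Cd163 (chr6:124304401-124304635, plus strand): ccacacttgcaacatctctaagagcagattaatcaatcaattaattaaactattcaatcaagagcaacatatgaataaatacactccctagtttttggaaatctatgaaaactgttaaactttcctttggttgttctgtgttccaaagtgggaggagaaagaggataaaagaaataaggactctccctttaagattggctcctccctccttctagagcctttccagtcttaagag
Spic (chr10:88683024-88683273, minus strand): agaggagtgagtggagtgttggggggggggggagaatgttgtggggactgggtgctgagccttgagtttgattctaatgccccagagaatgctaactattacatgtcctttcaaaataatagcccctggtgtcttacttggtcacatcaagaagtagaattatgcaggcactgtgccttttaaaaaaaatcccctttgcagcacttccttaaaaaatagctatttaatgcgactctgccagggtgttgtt
Cd5l (chr3:87357631-87357880, plus strand): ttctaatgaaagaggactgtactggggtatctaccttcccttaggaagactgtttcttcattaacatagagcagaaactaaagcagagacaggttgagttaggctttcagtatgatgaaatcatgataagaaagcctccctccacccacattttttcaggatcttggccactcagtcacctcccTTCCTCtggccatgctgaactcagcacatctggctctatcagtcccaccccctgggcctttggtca
Treml4 (chr17:48264045-48264199, plus strand): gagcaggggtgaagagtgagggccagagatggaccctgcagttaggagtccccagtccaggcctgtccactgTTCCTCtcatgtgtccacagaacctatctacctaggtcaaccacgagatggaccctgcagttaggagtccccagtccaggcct

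The Cd5l window held 1 PU box match and the Treml4 window 2, of which 1 lies in the printed bases, while those of Cd163 and Spic held none. Over all 32851 promoter windows of this length, 23.3% hold a PU box on either strand. Searched likewise on both strands, the antioxidant response element core TGACNNNGC, which NRF2 and BACH1 bind, is in 10.2% of windows, an NF-kappaB motif (GGG, 2 free bases, T, 2 free bases, CC) in 15.9%, an interferon response motif (GAAA, 2 free bases, GAAA) in 2.98% and a GATA motif AGATAA in 9.99%. None of these was in the 4 windows shown.

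The identity genes of the red pulp macrophage differed widely in how they varied. All levels below are deposited log2 values, on which 1 unit is a doubling, and levels of different genes are not compared. A spleen sample mixes many cell types, so fewer macrophages and less RNA per macrophage cannot be told apart.

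Adgre1 encodes the adhesion receptor by which mouse macrophages of the red pulp are usually recognised. Adgre1 stood at 8.99, 7.41, 7.67 and 9.05 on M5 to M8, at 8.66, 6.92, 9.20 and 5.52 on M9 to M12, and at 6.02, 5.67, 5.46 and 7.73 on M13 to M16. M12 to M15 were the 4 lowest arrays, at 5.46 to 6.02 against 6.92 to 9.20 on the other 8, although M12 is labelled septic and the rest of the set untreated. The same 4 arrays held the low Xist and high Eif2s3y values, so sex and this set cannot be told apart here. Over all genes 0.818% lay below the other arrays on this set. By label the means were 8.28 ± 0.86, 7.58 ± 1.68 and 6.22 ± 1.03 (SD, n = 4), and all 3 groups overlapped.

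Spic encodes the transcription factor that specifies these macrophages. Spic stood at 10.11, 9.68, 9.24 and 9.44 on M5 to M8, at 8.64, 7.80, 8.69 and 9.12 on M9 to M12, and at 9.02, 8.95, 8.38 and 9.83 on M13 to M16. Each of the 4 arrays labelled septic TLR-deficient lay above each labelled septic wildtype, and the untreated arrays spanned both. The means were 9.62 ± 0.37, 8.56 ± 0.56 and 9.05 ± 0.60 (SD, n = 4).

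Vcam1 encodes an adhesion molecule of red pulp macrophages and of stromal and endothelial cells. Vcam1 stood at 10.04, 9.97, 10.38 and 11.14 on M5 to M8, at 11.07, 8.97, 11.07 and 11.09 on M9 to M12, and at 11.58, 11.18, 11.26 and 10.80 on M13 to M16. The lowest value was on M10 and the next 3 on M5 to M7, and the other 8 arrays lay within 10.80 to 11.58. Group means were 10.38 ± 0.54, 10.55 ± 1.05 and 11.20 ± 0.32 (SD, n = 4). Markers of stromal and endothelial cells, all 10 of 10 measured, had a mean of 7.74 to 8.42, 6.74 to 8.38 and 8.15 to 8.51 by label, lowest on M10 as well. This was not particular to them. M10, the array of narrow spread, was also lowest for monocyte, marginal zone macrophage and T cell markers, and highest for hepatocyte markers. The part of stromal and endothelial cells in the Vcam1 values was not tested.

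Treml4 encodes a receptor for dying cells on splenic macrophages and dendritic cells. Treml4 stood at 8.23, 8.49, 8.42 and 9.77 on M5 to M8, at 9.67, 8.01, 9.87 and 9.15 on M9 to M12, and at 8.97, 9.83, 9.44 and 7.68 on M13 to M16. M5 to M7 with M16 lay at 7.68 to 8.49 and the other arrays at 8.97 to 9.87, except M10 at 8.01. Group means were 8.73 ± 0.70, 9.18 ± 0.84 and 8.98 ± 0.94 (SD, n = 4).

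**Figure D1:**
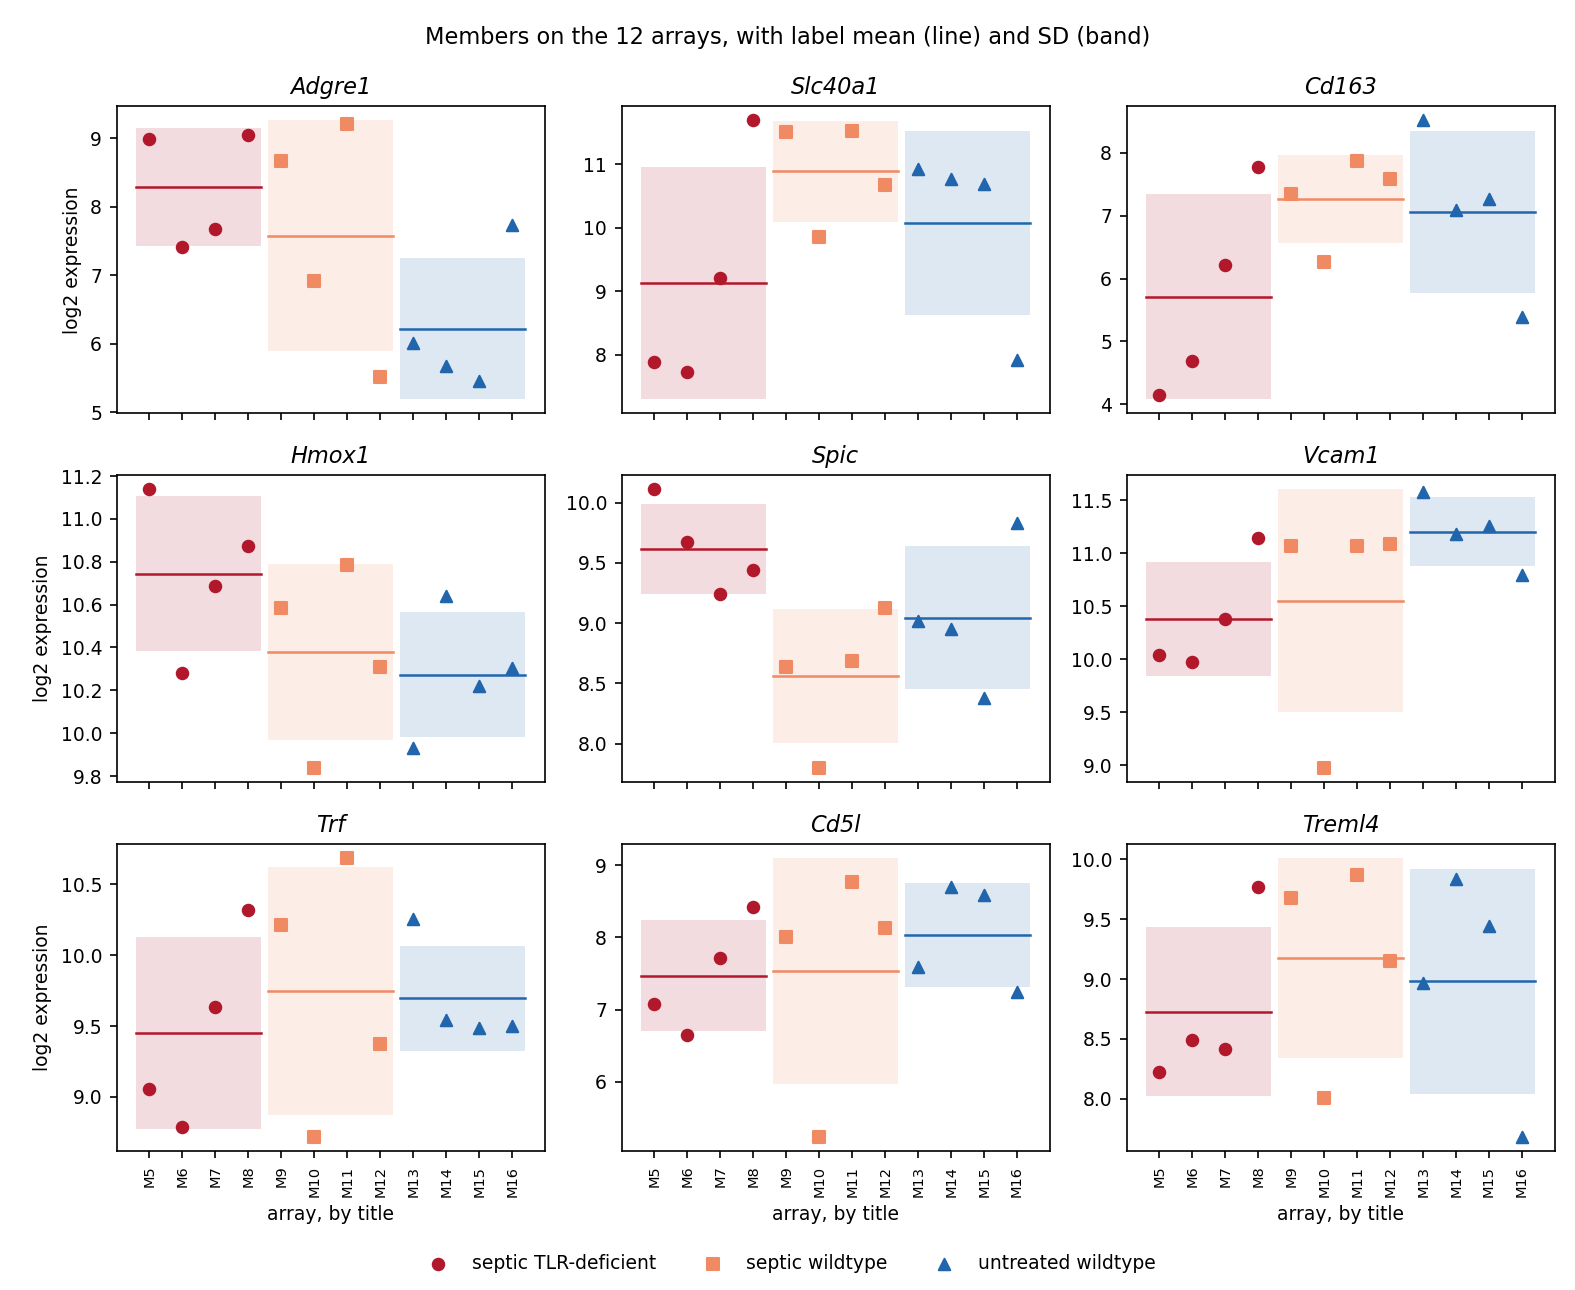
Log2 expression of the 9 measured genes (1 panel each, vertical axis) on every array in title order M5 to M16 (horizontal axis), with the label shown by colour and marker, the label mean as a line and its SD as a band. Slc40a1 and Cd163 are low on M5 to M7 and M16, Adgre1 is low on M12 to M15, and M10 is the lowest array for 5 of the 9 genes.

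Of the genes for haemoglobin and haem, Cd163 encodes the scavenger receptor that takes up haptoglobin-haemoglobin complexes. Cd163 stood at 4.15, 4.69, 6.22 and 7.77 on M5 to M8, at 7.35, 6.27, 7.87 and 7.58 on M9 to M12, and at 8.52, 7.09, 7.26 and 5.38 on M13 to M16. The 4 lowest arrays were M5 to M7 and M16, at 4.15 to 6.22 against 6.27 to 8.52 on the others, and M7 and M10 differed by little at that edge. By label the means were 5.71 ± 1.63, 7.26 ± 0.70 and 7.06 ± 1.29 (SD, n = 4), with overlap between all groups.

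Hmox1 encodes haem oxygenase 1, the enzyme that opens the haem ring. Hmox1 stood at 11.14, 10.28, 10.69 and 10.87 on M5 to M8, at 10.59, 9.84, 10.78 and 10.31 on M9 to M12, and at 9.93, 10.64, 10.22 and 10.31 on M13 to M16. Its range, 9.84 to 11.14, was the narrowest of the 9 genes, and no set of arrays stood apart. Its means were 10.74 ± 0.36, 10.38 ± 0.41 and 10.27 ± 0.29 (SD, n = 4).

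Cd5l encodes a protein that macrophages secrete and that inhibits their apoptosis. Cd5l stood at 7.08, 6.65, 7.72 and 8.42 on M5 to M8, at 8.0, 5.23, 8.76 and 8.13 on M9 to M12, and at 7.60, 8.69, 8.58 and 7.25 on M13 to M16. M10 was lowest by far, and M5 to M7 with M16 lay at 6.65 to 7.72, which overlapped M13 at 7.60. The means were 7.47 ± 0.77, 7.53 ± 1.57 and 8.03 ± 0.72 (SD, n = 4).

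Of the genes for iron export and transport, Slc40a1 encodes ferroportin, the iron exporter. Slc40a1 stood at 7.88, 7.73, 9.21 and 11.69 on M5 to M8, at 11.51, 9.86, 11.52 and 10.67 on M9 to M12, and at 10.93, 10.78, 10.68 and 7.91 on M13 to M16. M5 to M7 and M16 held the 4 lowest values, 7.73 to 9.21, and the other 8 arrays, from all 3 labels, lay at 9.86 to 11.69. Over all genes 1.85% lay below the other arrays on that set, and Slc40a1 and Cd163 were the 2 members that did. No member stood apart on M8 to M11, where 2.12% of genes lay below and 1.18% above all other arrays, and none lay above the others on M12 to M15, as 0.757% of genes did. The label means were 9.13 ± 1.83, 10.89 ± 0.80 and 10.08 ± 1.45 (SD, n = 4).

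Trf encodes transferrin, the iron carrier of plasma. Trf stood at 9.06, 8.79, 9.64 and 10.32 on M5 to M8, at 10.22, 8.72, 10.69 and 9.37 on M9 to M12, and at 10.25, 9.54, 9.49 and 9.50 on M13 to M16. M8, M9, M11 and M13 were above 10 and came from all 3 labels, so that the groups overlapped throughout. The means were 9.45 ± 0.68, 9.75 ± 0.88 and 9.70 ± 0.37 (SD, n = 4). The liver is the main source of transferrin, and 9 of 10 hepatocyte markers that were measured had a mean of 4.09 to 4.16, 4.16 to 5.14 and 3.99 to 4.09 by label, with 4 of the 9 (Ahsg, Tat, Apob and Fgb) below the array median on every array and the other 5 not, up to 6.79 for Apoa1.

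Adgre1 and Slc40a1 separated the arrays in different ways. M8, M9 and M11 were high for both, M5, M6, M7 and M16 had low Slc40a1 with Adgre1 at 7.41 to 8.99, and M12 to M15 had low Adgre1 with Slc40a1 at 10.67 to 10.93. In each of the last 2 sets, 1 array carried a label other than that of the remaining 3.

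**Figure D2:**
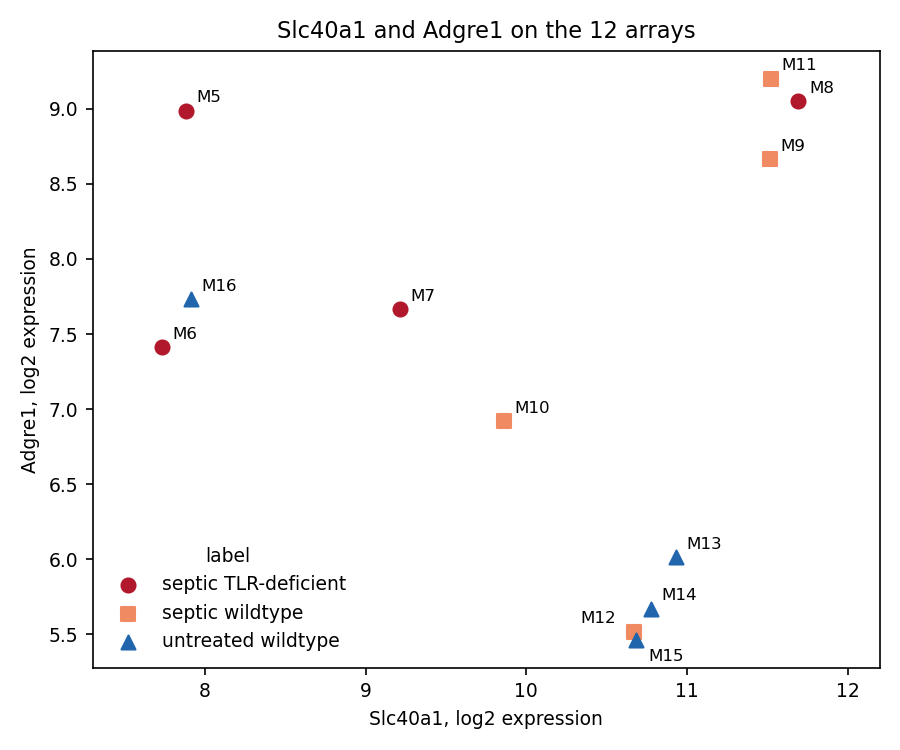
Log2 expression of Adgre1 (vertical axis) against that of Slc40a1 (horizontal axis), 1 point per array, labelled by title number, with the label group shown by colour and marker. M12 lies with M13 to M15 and M16 with M5 to M7, apart from arrays of their own label.

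The distance between members was described by the root mean square difference of their log2 values over the 12 arrays, each gene centred on its own mean. Among the 36 pairs, the closest were Vcam1 with Trf at 0.48, Vcam1 with Cd5l at 0.49, Slc40a1 with Cd163 at 0.52 and Hmox1 with Spic at 0.53. The values were not scaled, so genes that vary little lie close whether or not they share a pattern. The SD over 12 arrays was 0.39 for Hmox1 and 0.65 for Spic, against 1.49 for Slc40a1 and 1.35 for Cd163. The farthest were Adgre1 with Cd163 at 2.12 and Adgre1 with Slc40a1 at 2.06. Adgre1, ferroportin and the haemoglobin receptor, all known from the same macrophage, thus did not share 1 pattern over these arrays.

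**Figure D3:**
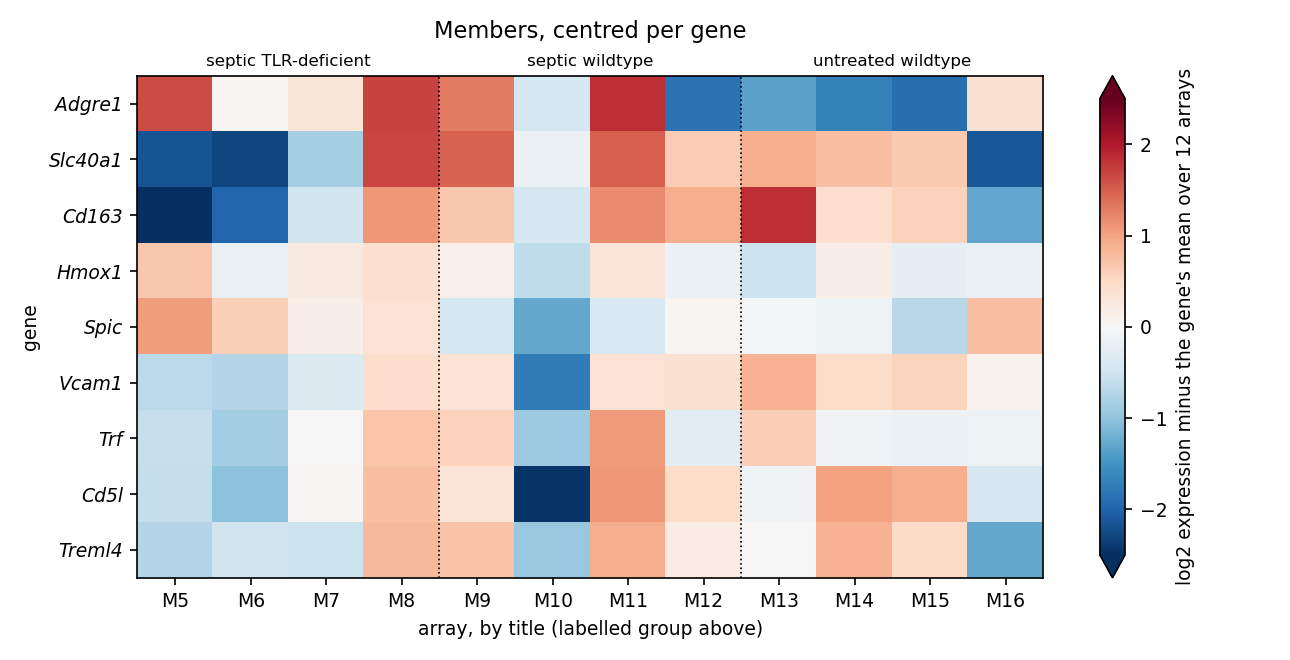
Log2 expression of the 9 genes (rows) on the 12 arrays in title order (columns, dotted lines between labels), each gene centred on its own mean, with colour for the difference in log2 units. Slc40a1 and Cd163 are low on M5, M6, M7 and M16, Adgre1 on M12 to M15, and M10 is below the mean for all 9 genes.

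By the same measure over all 19938 genes, the nearest genes were named for the 5 members with an SD of at least 0.75. For Slc40a1 (SD 1.49) these were Cmbl at 0.36, Kazald1 at 0.45 and Tcim at 0.49, against a median of 1.47 over all genes. For Cd163 (SD 1.35) they were Kazald1 at 0.35, Tcim at 0.52 and Abca9 at 0.61, against 1.35. For Adgre1 (SD 1.44) Cd300e was at 0.59, Car3 at 0.86 and Hs3st2 at 0.87, against 1.42. Treml4 (SD 0.78) was nearest to Emp3 at 0.21, Gcsam at 0.22 and Gm2a at 0.23, against 0.82. Cd5l (SD 1.02) was nearest to Lpcat2 and Ephx1 at 0.38 and Cd79a at 0.39, against 1.04, and this depended on M10: without it these 3 ranked 71, 19 and 109. Kazald1 and Tcim are shared by Slc40a1 and Cd163.

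The comparison of septic with untreated wildtype arrays asks what CASP does in animals with intact TLR signalling. Adgre1 differed by 1.35 (SE 0.74), Vcam1 by -0.65 (SE 0.44) and Spic by -0.49 (SE 0.33). Slc40a1 at 0.82 (SE 0.85), Cd5l at -0.50 (SE 0.66), Cd163 at 0.20 (SE 0.76), Treml4 at 0.20 (SE 0.51), Hmox1 at 0.11 (SE 0.25) and Trf at 0.05 (SE 0.42) lay within 1 SE of 0. None of the 9 passed an adjusted p of 0.05 in limma, with values from 0.439 for Adgre1 and Vcam1 to 0.941 for Trf, and 0 of all genes did (0%). At an unadjusted p under 0.05 it was 0 of 9 against 8.81% of all genes, and 0 of 9 were without overlap between the groups against 6.42%. The members' means were higher for 6 and lower for 3, with a median difference of 0.11 (-0.022 with each array centred on its median), against 55.1% higher, 44.9% lower and a median of 0.07 over all genes. The Slc40a1 difference was 0.09 without M16, that of Vcam1 -0.13 and that of Cd5l 0.27 without M10, that of Spic -0.22 without M16, and that of Adgre1 ranged from 0.81 without M11 to 2.04 without M12.

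The comparison of both septic groups asks how septic mice labelled TLR-deficient differ from septic wildtype mice. Spic was higher in the TLR-deficient group by 1.06 (SE 0.33), and ferroportin and the haemoglobin receptor were lower, Slc40a1 at -1.76 (SE 0.85) and Cd163 at -1.56 (SE 0.76). Adgre1 differed by 0.70 (SE 0.74), Hmox1 by 0.37 (SE 0.25), Treml4 by -0.45 (SE 0.51), Trf by -0.30 (SE 0.42), Vcam1 by -0.17 (SE 0.44) and Cd5l by -0.06 (SE 0.66). Spic had an unadjusted p of 0.00734 and an adjusted p of 0.590 in limma, and Slc40a1 and Cd163 had unadjusted p of 0.0584 and 0.0601 and the same adjusted p. 0 of 9 members and 0 of all genes (0%) passed the adjusted threshold. Spic alone of the 9 had an unadjusted p under 0.05 (6.65% of all genes) and alone was without overlap, as were 3.80% of all genes in either direction and 2.05% in that of Spic. The means of 3 members were higher and of 6 lower, with a median of -0.17 against -0.06 over all genes, of which 43.9% were higher and 56.1% lower. The Slc40a1 difference ranged from -2.62 to -1.30 and that of Cd163 from -2.24 to -1.04 as single arrays were left out, the first of each pair without M8, which is labelled TLR-deficient but had high values of both. Spic kept 0.80 without M10 and 1.25 without M12. The Adgre1 difference shrank to 0.019 without M12 and grew to 1.25 without M11.

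Spic and Slc40a1 therefore differed in how they lay over the arrays. Spic was high on M5 to M7 and M16, at 9.24 to 10.11, and on M8 at 9.44, whereas Slc40a1 was low on the same 4 arrays and highest of all on M8.

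The third comparison, TLR-deficient septic against untreated arrays, changes genotype and sepsis together, and shares a group with each of the others. Adgre1 was higher by 2.06 (SE 0.74), with an unadjusted p of 0.0160 and an adjusted p of 0.99996 in limma. Cd163 differed by -1.35 (SE 0.76), Slc40a1 by -0.95 (SE 0.85), Vcam1 by -0.82 (SE 0.44), Cd5l by -0.56 (SE 0.66), Treml4 by -0.25 (SE 0.51) and Trf by -0.25 (SE 0.42), and Spic was higher by 0.57 (SE 0.33) and Hmox1 by 0.47 (SE 0.25). Their adjusted p was 0.99996 for each. 0 of 9 members and 0 of all genes (0%) passed, 1 of 9 had an unadjusted p under 0.05 against 1.88% of all genes, and 0 of 9 were without overlap against 3.40%. Means of 3 members were higher and of 6 lower, with a median of -0.25 against 0.01 over all genes, 51.9% of which were higher and 48.1% lower. Without M8 the Slc40a1 difference reached -1.80 and that of Cd163 -2.04, and without M6 that of Slc40a1 was -0.48. Without M5 the Cd163 difference was -0.84, and without M15 that of Spic was 0.35.

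**Figure D4:**
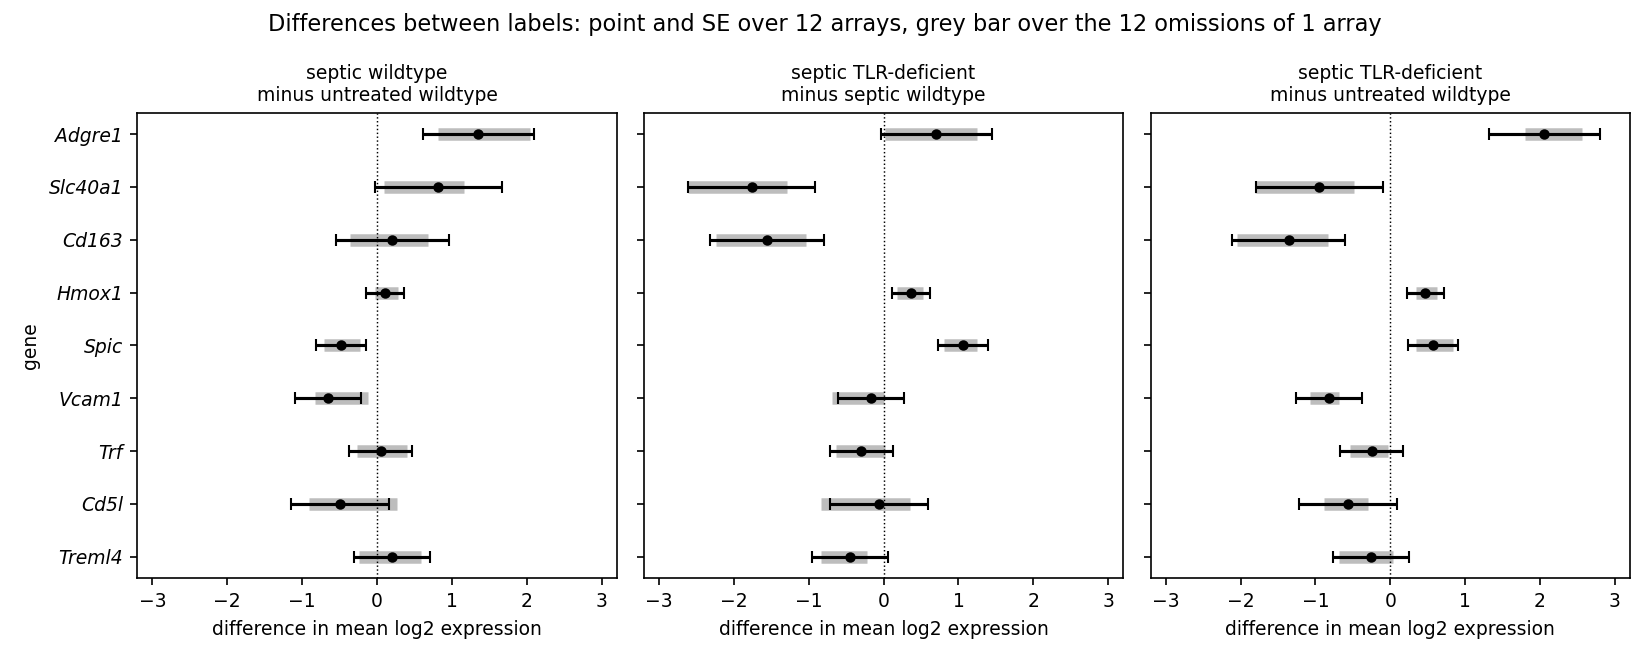
Difference in mean log2 expression between the labelled groups (horizontal axis, log2 units) for the 9 genes (vertical axis) in the 3 comparisons, with black bars for the standard error of the limma fit over 12 arrays and grey bars for the range as each array is left out in turn. Between the septic groups Slc40a1, Cd163, Spic and Adgre1 have the widest differences, and over 12 arrays none of the 9 genes passed an adjusted p of 0.05 in any comparison.

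Leaving out arrays that stand apart changed which members passed. With replicates 1 to 3 of each group, an alternative chosen knowing that replicate 4 arrays lay with other labels, Slc40a1 passed the limma adjusted threshold in the comparison of the septic groups at -2.69 (SE 0.50), as did 0.707% of all genes. No member passed in the other 2 comparisons, where 0.0451% (septic against untreated wildtype) and 0.166% of genes did. With M10 also left out, Slc40a1 at -3.24, Cd163 at -2.59, Vcam1 at -0.94, Trf at -1.29 and Treml4 at -1.39 passed in that comparison, as did 5.03% of genes in either direction. In septic TLR-deficient against untreated arrays, Adgre1 at 2.31, Slc40a1 at -2.52, Cd163 at -2.60, Vcam1 at -1.21 and Treml4 at -1.03 then passed, against 3.39% of genes. In septic against untreated wildtype Adgre1 passed at 3.21, against 0.0953%. The arrays left under each label, M5 to M7, M9 with M11, and M13 to M15, all come from 1 of the sets seen in these data, so these fits compare parts of those sets and are given as description only.

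Iron genes outside the named group were described from a list of 19 for uptake, storage and export, all measured, and 0 passed the adjusted threshold in any comparison. In septic against untreated wildtype arrays 6 were higher and 13 lower, with a median of -0.25, and 8 and 11 both on quantile normalized values (median -0.072) and without M10 (median -0.073). With arrays centred on their medians it was 4 and 15 (median -0.38, against -0.06 over all genes). As deposited, 2 of the 19 passed unadjusted, both lower, against 8.81% of all genes. Lcn2, whose product binds bacterial siderophores, was lowest at -1.89 (SE 0.77), and Hamp, which encodes hepcidin, highest at 0.59 (SE 0.36), or 0.17 without M10. Hamp was below the array median on every array.

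Between the septic groups 14 of the 19 iron genes were higher and 5 lower, with a median of 0.27, but it was 13 and 6 with a median of 0.14 on quantile normalized values and 8 and 11 with a median of -0.0065 without M10. As deposited, 4 passed unadjusted, all higher, against 6.65% of all genes. Hamp was lowest at -0.63 (SE 0.36), or -0.22 without M10, and Cp, which encodes the ferroxidase ceruloplasmin, highest at 1.85 (SE 0.65), or 1.06 without M10. On M10 Cp stood at 5.10, against 8.24 to 10.42 on the other 11 arrays. Tfrc, the transferrin receptor, was at 0.77 (SE 0.26, unadjusted p 0.0119), and at -0.39 in septic against untreated wildtype, which became 0.036 on quantile normalized values. The septic groups overlapped for Tfrc, at 9.65 to 9.76 on TLR-deficient and 8.53 to 9.92 on wildtype arrays, with the highest value on M12. In TLR-deficient against untreated arrays 10 were higher and 9 lower, with a median of 0.02, from Hfe, which encodes a partner of the transferrin receptor, at -0.36 (SE 0.38) to Tfr2, the second transferrin receptor, at 0.45 (SE 0.27), and Tfrc was at 0.37.

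The ferritin genes store the iron that ferroportin does not export. Fth1, the heavy chain, stood at 12.60, 12.54, 12.30 and 11.95 on M5 to M8, at 11.90, 11.76, 12.08 and 12.14 on M9 to M12, and at 12.05, 11.89, 11.997 and 12.67 on M13 to M16. M5 to M7 and M16 were its 4 highest arrays, as they were the 4 lowest for Slc40a1, and 1.72% of all genes lay above the other arrays on that set. Fth1 differed by -0.18, 0.37 and 0.20 in the 3 comparisons in the order above (SE 0.21). Ftl1, the light chain, showed no such set, and differed by -0.17, 0.23 and 0.06 (SE 0.25), the first of which became 0.084 on quantile normalized values and 0.12 without M10, and the second 0.032 and -0.063. Cp was also highest on that set, at 9.22 to 10.42 against 5.10 to 9.07 on the other arrays. Lcn2 was at 11.03 to 12.06 there, 10.38 to 11.05 on M12 to M15 and 7.88 to 9.02 on M8 to M11, where it lay below all others, as 2.12% of genes did.

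Haem and haemoglobin genes were counted from a list of 16, all measured, and none passed the adjusted threshold in any comparison. In septic against untreated wildtype arrays 7 were higher and 9 lower, with a median of -0.12, and 5 passed unadjusted, all lower, against 8.81% of all genes. They ran from Hp, which encodes haptoglobin, at -1.12 (SE 0.50) to Blvrb, a biliverdin reductase, at 0.70 (SE 0.39). On quantile normalized values 7 were higher and 9 lower (median -0.085), and without M10 it was 6 and 10 (median -0.083). With arrays centred on their medians 4 were higher and 12 lower (median -0.25, against -0.06 over all genes). Nfe2l2, which encodes the antioxidant factor NRF2, was at -0.97 (SE 0.41), or -0.52 without M10. Bach1, the haem-sensing repressor of Hmox1 and Spic, was at -0.51 (SE 0.20), or -0.069 on quantile normalized values.

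Between the septic groups 12 of the 16 haem genes were higher and 4 lower, with a median of 0.32. The counts and median were 11, 5 and 0.11 on quantile normalized values, and 10, 6 and 0.11 without M10. With arrays centred on their medians they were 15, 1 and 0.43, against a median of 0.05 over all genes. As deposited, 4 passed unadjusted, all higher, against 6.65% of all genes. The list ran from the haem transporter relative Flvcr2 at -0.31 (SE 0.21) to Hp at 1.09 (SE 0.50). Nfe2l2 was at 0.37, or 0.049 on quantile normalized values and -0.082 without M10, and Bach1 at 0.32, or -0.020 on quantile normalized values. As deposited, Bach1 lay at 7.58 to 8.25 on TLR-deficient and 7.47 to 7.69 on septic wildtype arrays, which overlapped. Slc48a1, which moves haem out of the phagolysosome, differed by 0.14, -0.0029 and 0.14 in the 3 comparisons (SE 0.18), and by 0.54, -0.32 and 0.22 on quantile normalized values. In TLR-deficient against untreated arrays 9 were higher and 7 lower, 2 passed unadjusted (both higher, against 1.88% of all genes) and the median was 0.04, from Lrp1, the receptor for haem-haemopexin, at -0.71 (SE 0.35) to Blvrb at 0.77 (SE 0.39), with Nfe2l2 at -0.60 and Bach1 at -0.19.

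**Figure D5:**
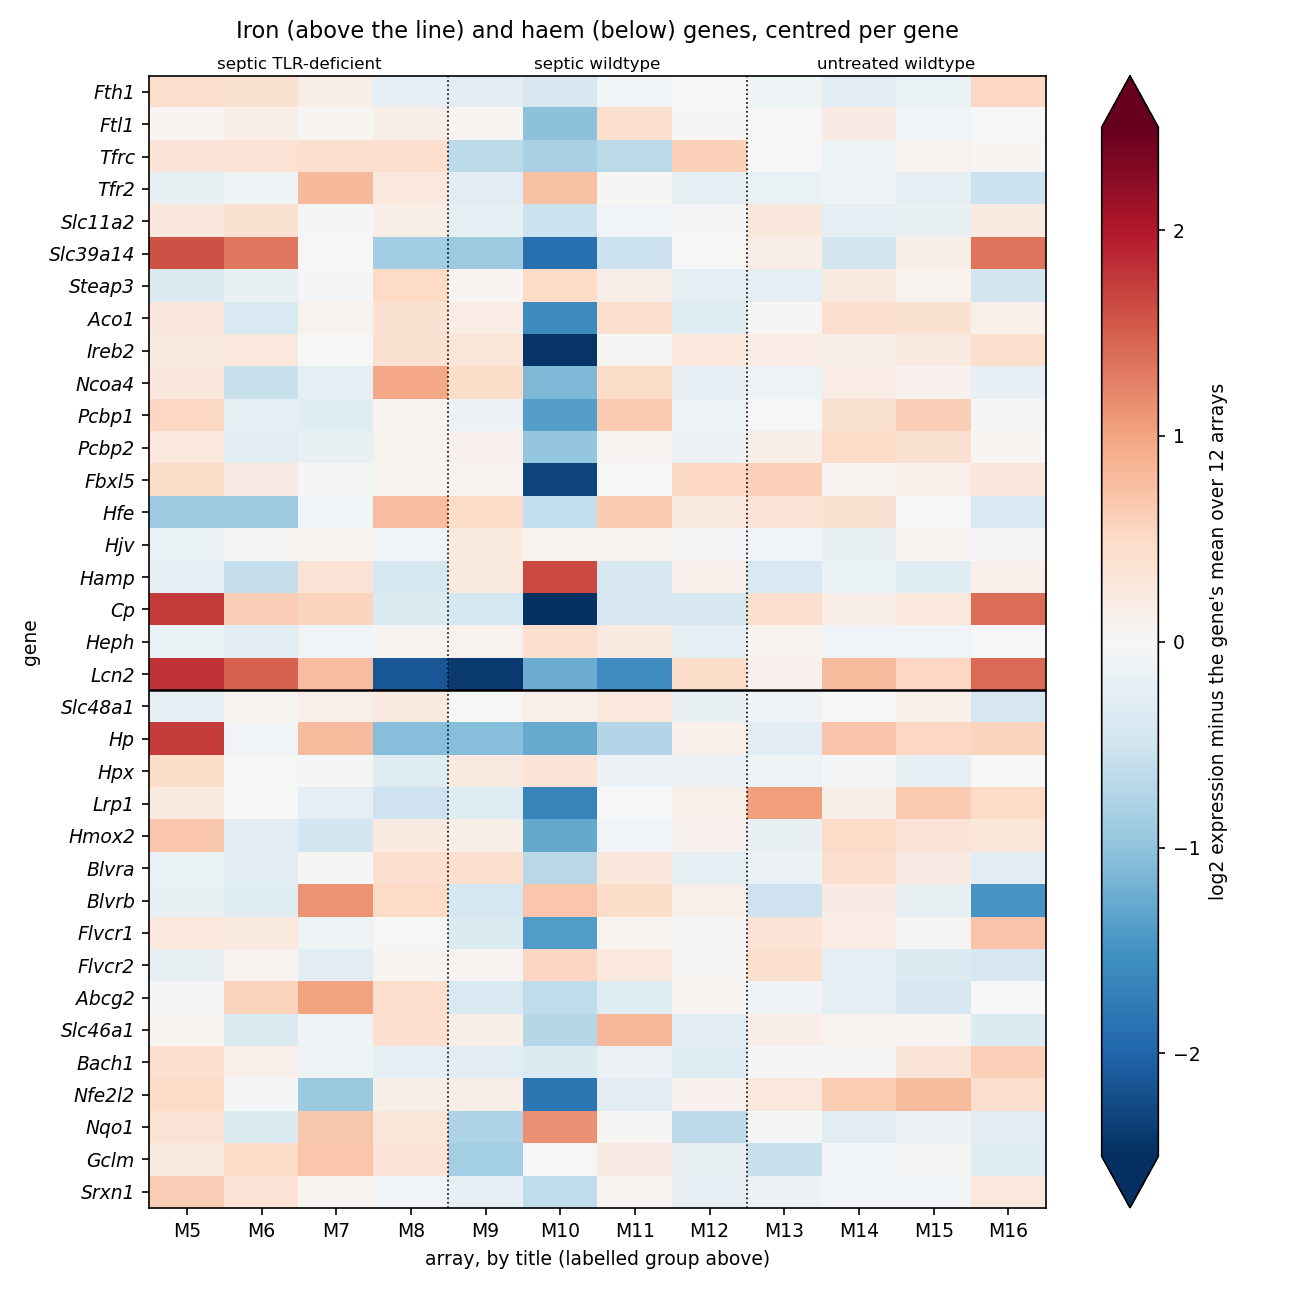
Log2 expression of iron and haem genes (rows) on the 12 arrays in title order (columns, dotted lines between labels), each gene centred on its own mean, with colour for the difference in log2 units. Fth1 and Cp are highest on M5 to M7 and M16, and Lcn2 and Hp are lowest on M8 to M11.

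Other red pulp macrophage and efferocytosis genes were counted from a list of which 23 were measured. In septic against untreated wildtype arrays 3 were higher and 20 lower, with a median of -0.45, but it was 11 and 12 with a median of -0.0067 on quantile normalized values and 9 and 14 with a median of -0.055 without M10. As deposited, 3 passed unadjusted (all lower, against 8.81% of all genes) and 0 adjusted, and 44.9% of all genes were lower. The lowest was Itga9, an integrin subunit, at -1.08 (SE 0.45), or -0.56 without M10, and the highest Pparg, a nuclear receptor of macrophages, at 0.57 (SE 0.39). Between the septic groups 11 were higher and 12 lower (median -0.015), but 5 and 18 on quantile normalized values (median -0.31) and 4 and 19 without M10 (median -0.34), from Pparg at -0.71 (SE 0.39) to Itga9 at 1.07 (SE 0.45), or 0.55 without M10. As deposited, 1 passed unadjusted in each direction, against 6.65% of all genes over both directions. By set, Pparg lay below all others on M5 to M7 and M16, at 5.11 to 5.94 (1.85% of all genes did). It lay above all others on M8 to M11, at 6.67 to 7.21 (1.18%). Itga9 lay below all others on M8 to M11, at 6.38 to 8.54 against 8.55 to 9.63 (2.12%), a narrow gap.

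In TLR-deficient against untreated arrays 1 of the 23 was higher and 22 lower (3 and 20 on quantile normalized values), with a median of -0.37 and 1 passing unadjusted. Over all genes 48.1% were lower and 1.88% passed unadjusted, with a median of 0.01. They ran from Mrc1, the mannose receptor, at -1.11 (SE 0.65) to Fcna, which encodes ficolin A, at 0.12 (SE 0.26). Csf1r, the receptor for the main macrophage growth factor, differed by -0.45, -0.16 and -0.61 in the 3 comparisons (SE 0.34). Its first 2 values became -0.026 and -0.49 on quantile normalized values and -0.055 and -0.55 without M10. Spi1, which encodes PU.1, differed by -0.63, 0.30 and -0.33 (SE 0.31), the first 2 of which were -0.22 and -0.028 on quantile normalized values and -0.43 and 0.097 without M10.

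Markers of other cell types were set beside the arrays on which Slc40a1, Cd163 and Adgre1 lay apart. With all 12 arrays kept, only the dendritic cell markers of these lists separated a set from the others. On M5 to M7 and M16, where Slc40a1 and Cd163 were low, the mean of 8 of 8 dendritic cell markers was 6.03 to 6.21, against 6.45 to 7.54 on M8 to M11 and 7.03 to 7.61 on M12 to M15. The mean of 7 of 8 measured B cell markers was 8.06 to 8.31 on the first set, 8.23 to 10.28 on the second and 9.55 to 9.90 on the third. That of 7 of 8 T cell markers was 6.63 to 6.74, 6.42 to 7.72 and 6.88 to 7.58. For both lists M10 alone kept the first set from standing apart, at 8.23 for B cells and 6.42 for T cells. M8, M9 and M11 lay at 9.97 to 10.28 and at 7.64 to 7.72. On M12 to M15, where Adgre1 was low, 12 of 12 neutrophil markers averaged 7.24 to 8.22, against 5.95 to 7.39 and 6.40 to 6.99 on the other sets, and 6 of 8 measured monocyte markers 7.70 to 8.58, against 7.22 to 8.09 and 6.13 to 7.45. The 4 marginal zone macrophage markers, those of the neighbouring splenic macrophage, averaged 7.18 to 7.47, 6.36 to 8.04 and 7.42 to 7.78. Erythroid markers (8 of 10 measured) averaged 6.26 to 8.50, 6.09 to 8.01 and 7.23 to 7.94, and by label 7.68 to 8.50, 6.09 to 8.01 and 6.26 to 7.47. The other red pulp macrophage and efferocytosis genes (23 measured) averaged 8.19 to 8.37, 7.38 to 8.89 and 8.66 to 8.898. There too M10 alone, at 7.38, kept the first set from standing apart below the others. The ranges of the remaining lists overlapped between sets. The part of any of these lists in the members' values was not tested.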

How the data were processed

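Total RNA from spleen was made into biotin-labelled cDNA with Affymetrix kits, per the labels' protocols. The values deposited by the authors are log2 expression values per probe set, made by RMA in Affymetrix Expression Console per the submitters' processing notes. RMA normalizes between arrays, yet their medians ranged from 5.22 to 5.54 and M10 had a narrower spread. Precision is limited by how few arrays there are. The annotation gives 1 symbol for 21789 of 35557 probe sets, more than 1 for 1621 and no symbol for 12147. For each of 19938 genes the probe set with the highest mean was used, and dim genes were kept.

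Differences between the 3 groups of 4 arrays, taken from the labels, were fitted in limma 3.58.1 (R 4.3.3) as 1 mean per group over 12 arrays, two-sided, with Benjamini-Hochberg adjustment over all genes and a threshold of 0.05. The labels call the samples biological replicates without naming animals, so p-values measure only the spread between these samples. The procedure was tested on simulated data.

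The members and lists were chosen with earlier results of these data known. All members were named, and of each pathway list its lowest and highest gene in each comparison with Hamp, Tfrc, Fth1, Ftl1, Slc48a1, Nfe2l2, Bach1, Csf1r and Spi1. Same-numbered replicates did not deviate together (correlations of -0.54 to 0.14), so the numbers were not taken as pairs. The alternatives tried were further normalization, filters, other variances, array weights, a replicate block, a covariate and arrays left out. The values of the pathway lists on quantile normalized or centred values and without M10 were added after seeing the data.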

Additional observations from a re-analysis of the deposited data

Results flagged for a closer look

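Among 27 sets of 4 arrays (9 genes in 3 labelled groups), 3 held a value far from the other 3 arrays by Dixon's criterion, which chance meets in about 1 of 20. Slc40a1 was at 7.91 on M16 (untreated replicate 4), against 10.68 to 10.93 on the other untreated arrays. Vcam1 was at 8.97 on M10 (septic wildtype replicate 2), against 11.07 to 11.09 on the other arrays of that label. Trf was at 10.25 on M13 (untreated replicate 1), against 9.49 to 9.54 on the other untreated arrays.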

How the results depend on the processing

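Of 25 alternatives, 24 gave member values, as the stricter threshold of 0.01 was applied to gene counts only. Among these, 602 of 648 member values kept their direction and side of the threshold, 12 passed the threshold and 34 had the other sign, in 10 of 27 results. Many of these values could not change sign. Filters, other variances and the replicate block leave every member difference as it is. Leaving out an array does the same for the comparison that does not use its group. The 602 therefore say little about how stable the directions are. The count of genes called, 0 in each comparison, stayed 0 in all but 3 alternatives. Array weights, which gave M10 a weight of 0.039 against 0.685 to 4.476, called 1 gene in septic against untreated wildtype and moved the members' median between the septic groups to -0.82. Replicates 1 to 3 called 9, 141 and 33 genes in the 3 comparisons, and 19, 1002 and 675 with septic wildtype replicate 2 also left out. The members' median between the septic groups was then -1.23, and that of TLR-deficient against untreated -1.03 in both. The last 2 alternatives hold 9 and 8 arrays, and the cause of these changes was not tested.

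Other signs were seen as follows. Further quantile normalization gave Cd5l 0.042 between the septic groups. Centring on array medians moved the median of all genes from 0.07 to -0.06 in septic against untreated wildtype, where Hmox1 became -0.022 and Trf -0.077, and from -0.06 to 0.05 between the septic groups, where Cd5l became 0.051. A Y-linked covariate (3 of the 4 genes) gave Trf -0.073 in septic against untreated wildtype, Adgre1 -0.083 and Cd5l 0.073 between the septic groups, and Treml4 0.20 in TLR-deficient against untreated. Replicates 1 to 3 gave Cd163 -0.46, Treml4 -0.23 and Adgre1 -0.24 (the last between the septic groups), and without septic wildtype replicate 2 as well Cd163 -0.014, Cd5l 0.093 and Adgre1 -0.91. The cause of these was not tested.

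Leaving out single arrays, septic against untreated wildtype ranged from -0.36 to 0.69 for Cd163, -0.030 to 0.29 for Hmox1, -0.26 to 0.40 for Trf, -0.91 to 0.27 for Cd5l and -0.24 to 0.585 for Treml4, with members' medians of -0.22 to 0.40. Between the septic groups it was -0.70 to 0.011 for Vcam1, -0.64 to 0.016 for Trf and -0.83 to 0.35 for Cd5l (medians -0.70 to 0.016). TLR-deficient against untreated gave -0.69 to 0.031 for Treml4 (medians -0.69 to -0.115). The replicate block called 0 genes in each comparison, with 1338, 1006 and 308 at an unadjusted p under 0.05. As each group holds each replicate number once, it could not move the members' medians from 0.11, -0.17 and -0.25. Each member has 1 probe set, so treating probe sets singly gave no further value.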

Other observations

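Pancreatic acinar genes, 5 of 7 measured, had a mean log2 value of 4.70 to 5.15 on the arrays labelled septic TLR-deficient, 4.86 to 8.81 on septic wildtype and 4.63 to 9.86 on untreated arrays. Cpa1, a digestive carboxypeptidase, was the highest of them at 11.08 on 1 array.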
